A study of Mus musculus with 24 samples.

Results

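The 10 genes that mark the fibroblasts of the adventitia, the outer coat of the artery, were followed in whole carotid arteries of mice given vehicle, 17β-estradiol (E2), estetrol (E4) or tamoxifen (TAM). They were Pdgfra, Dcn, Lum, Pi16, Dpt, Ly6a, Cd34, Gsn, Smoc2 and Dpep1, taken as the rows whose Ensembl mouse gene identifier carries one of these symbols in GENCODE M21, and all 10 were found among the 55421 genes of the count tables and among the 25033 genes tested. The arteries came from C57BL/6 mice with no other allele named, 9 weeks old and treated for 3 weeks as the labels put it, and the study's methods describe a shorter treatment. The 4 groups, OVX (ovariectomized, labelled placebo), E2, E4 and TAM, held 6 libraries each, 1 per animal number. The study describes the vehicle and E4 mice as ovariectomized and the E2 mice as kept under like conditions. It gave the estrogens in subcutaneous pellets, with a larger mass of E4 than of E2 per pellet, chosen to bring the estrogenic action of both on the uterus to a like level in place of matching mass. The dose of TAM, and whether those mice were ovariectomized, are not given in the sources used here. The 6 E4 libraries carry E4 in their titles but placebo in their treatment label, and were grouped by title.

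Adventitial fibroblasts build and renew the collagen-rich outer layer of the vessel, and a part of them lies near the outermost fascia, where Pi16, Dpt, Ly6a and Cd34 mark cells with progenitor features. The receptor Pdgfra is the usual marker of fibroblasts against smooth muscle, while decorin (Dcn) and lumican (Lum) are small leucine-rich proteoglycans that coat collagen fibrils. Several of the markers are shared: endothelial cells also carry Cd34 and Ly6a, and gelsolin (Gsn) is made by many cell types. Estradiol acts through estrogen receptors, estetrol is an estrogen made by the fetal liver, and tamoxifen is a selective estrogen receptor modulator that acts as agonist or antagonist according to the tissue.

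All markers were well covered. Library totals ran from 24647246 to 64221401 counts, and no marker had fewer than 941 counts in a library. Values are given as CPM, which scale the counts of every library to a common total, and levels are compared between genes only per kilobase of exon. On that scale the mean level over the 24 libraries was highest for Gsn, at 1015 CPM per kilobase, followed by Dcn at 338 and Dpt at 334. Ly6a stood at 183 CPM per kilobase, Lum at 155, Pi16 at 85.3 and Cd34 at 50.2. Smoc2, at 30.4, Dpep1, at 23, and Pdgfra, at 17.3 CPM per kilobase, were the lowest. None of the fibroblast marks was absent in any library, and the smooth muscle genes of the media and the endothelial genes were present beside them, so each library was a mixture of the wall's cells. In such bulk samples fewer fibroblasts and less RNA per fibroblast cannot be told apart.

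The genes lie on several chromosomes of GRCm38. Dcn (ENSMUSG00000019929, chromosome 10, 97479609 to 97518143) and Lum (ENSMUSG00000036446, chromosome 10, 97565128 to 97572703) are neighbours on the same strand, separated by 46984 bases, and their coding sequences are 50.9% identical. Cd34 (ENSMUSG00000016494, chromosome 1, 194938819 to 194961279) and Dpt (ENSMUSG00000026574, chromosome 1, 164796644 to 164824266) share a chromosome but are not neighbours, as do Pi16 (ENSMUSG00000024011, chromosome 17, 29317680 to 29330593) and Smoc2 (ENSMUSG00000023886, chromosome 17, 14279506 to 14404790). The others are Pdgfra (ENSMUSG00000029231, chromosome 5, 75152292 to 75198215), Ly6a (ENSMUSG00000075602, chromosome 15, 74994877 to 74998031), Gsn (ENSMUSG00000026879, chromosome 2, 35256380 to 35307892) and Dpep1 (ENSMUSG00000019278, chromosome 8, 123186242 to 123201812). Exons of 3 markers overlap another annotated gene, over 6.5% of the exon bases in Pdgfra, 3.49% in Pi16 and 2.03% in Cd34, so a small part of their counts could belong to the overlapping gene.

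Ly6a has close copies in its own family, and its counts are less certain for that reason. Over the whole coding sequence it is 86.3% identical to Ly6i, 84.6% to Ly6f, 83.1% to Ly6g, 81.8% to Ly6c1 and 81.6% to Ly6c2, and reads from such stretches can be assigned to either copy. The first 60 coding bases of Ly6a and Ly6c1 in GENCODE M21 show how alike they are, with capitals at the 2 positions that differ.
Ly6a: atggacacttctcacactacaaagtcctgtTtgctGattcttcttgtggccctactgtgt
Ly6c1: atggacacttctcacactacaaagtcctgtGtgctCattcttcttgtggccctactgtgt
Outside these 2 positions the 60 bases were identical.

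Promoter windows from 250 bases before to 50 bases after the annotated start (RefSeq, GRCm38.p6) were found for 6 of the 10 markers, Dpt, Cd34, Gsn with 3 starts, Pdgfra, Dpep1 and Pi16. The Pi16 window, 29318632 to 29318931, lies inside the gene as GENCODE places it (29317680 to 29330593). The annotations thus differ on the start of Pi16, and its positions below count from the RefSeq start. The windows of Cd34, Dpt and Pi16 are shown because Cd34 responded to E2, Pi16 and Dpt were lower with E4, and all these genes varied together between animals. Capitals mark an estrogen response element half-site (GGTCA, on either strand), a TATA box (TATAAA) or a CCAAT box (CCAAT).
Cd34, chr1:194938571-194938870, plus strand: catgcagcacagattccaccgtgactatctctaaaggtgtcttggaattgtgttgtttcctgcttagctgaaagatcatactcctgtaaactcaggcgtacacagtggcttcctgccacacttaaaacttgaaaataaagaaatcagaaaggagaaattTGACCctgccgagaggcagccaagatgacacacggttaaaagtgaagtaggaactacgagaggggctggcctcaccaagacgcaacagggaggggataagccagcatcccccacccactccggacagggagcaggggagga
Dpt, chr1:164796413-164796712, plus strand: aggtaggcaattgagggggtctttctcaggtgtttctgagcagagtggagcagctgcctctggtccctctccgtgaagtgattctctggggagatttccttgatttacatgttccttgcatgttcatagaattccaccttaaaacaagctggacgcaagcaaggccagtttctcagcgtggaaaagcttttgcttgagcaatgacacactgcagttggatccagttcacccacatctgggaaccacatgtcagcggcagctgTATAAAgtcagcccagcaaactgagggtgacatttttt
Pi16, chr17:29318632-29318931, plus strand: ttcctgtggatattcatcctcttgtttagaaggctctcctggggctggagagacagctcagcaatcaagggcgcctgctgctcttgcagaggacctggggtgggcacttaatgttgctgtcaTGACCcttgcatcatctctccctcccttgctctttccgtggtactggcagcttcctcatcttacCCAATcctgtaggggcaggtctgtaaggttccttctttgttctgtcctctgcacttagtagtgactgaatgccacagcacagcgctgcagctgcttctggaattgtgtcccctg
The half-site stood at position -91 from the start in Cd34 and at -128 in Pi16, and was also found in 1 Gsn window and in that of Dpep1. It occurs in 40.5% of the 32851 promoter windows searched on both strands. The full element, an inverted repeat of the half-site with a spacer of 3 bases, present in 0.07% of all windows, had no match in the 8 windows of the markers. The TATA box, found in 13.6% of windows, matched in Dpt at position 13, and the CCAAT box, in 37.4%, matched in Pi16 and in 2 Gsn windows. These are letter matches and say nothing about binding.

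**Figure D1:**
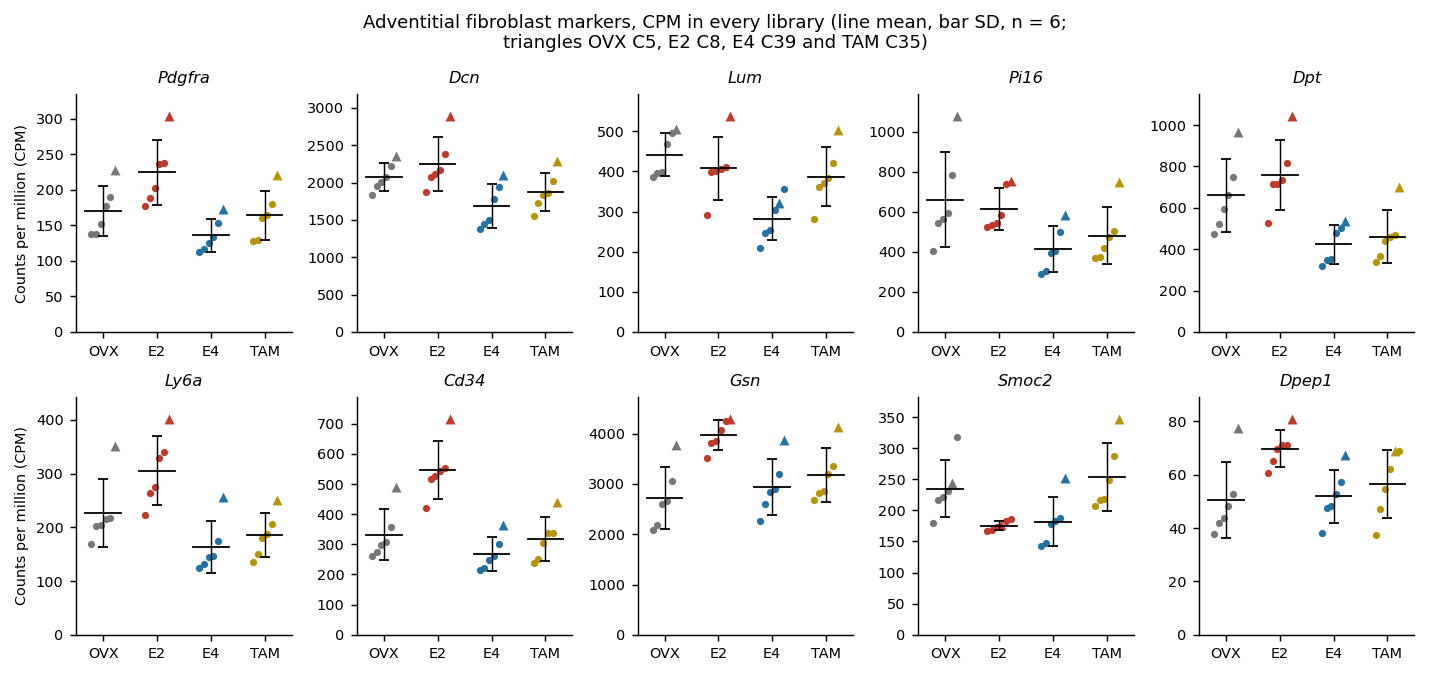
CPM of each marker (vertical axis, starting at 0) in every library of the OVX, E2, E4 and TAM groups; lines are means, bars 1 SD, n = 6, and triangles are OVX C5, E2 C8, E4 C39 and TAM C35. The 6 E2 libraries lie at 420.5 to 717 CPM of Cd34, a range that OVX C5 and TAM C35 reach, and the triangle is the highest point of its group in 9 of 10 markers.

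Of the 10 markers, 2 rose with E2, 3 fell with E4 and 0 passed the test with TAM, each as compared with vehicle. A gene passed at an adjusted p under 0.05 (edgeR quasi-likelihood test, Benjamini-Hochberg over the 25033 genes). With E2, Cd34 and Gsn were higher and no marker was lower, that is 2 of 10 beside 4.16% of all genes tested (2.88% higher and 1.28% lower), and the median log2 fold change of the 10 was 0.30 beside 0.006 for all genes. With E4, Lum, Pi16 and Dpt were lower and none was higher, 3 of 10 beside 22% of all genes (9.52% higher and 12.5% lower), with a median of -0.35 beside -0.01. E4 moved many genes, and the count of markers changed with single libraries. Without E4 C39, 6 markers were lower (Dcn, Lum, Pi16, Dpt, Ly6a and Smoc2) beside 11.8% of all genes called lower. Without OVX C5, E4 C19 or E4 C20 only Lum was, beside 7.93%, 8.79% and 7.93% of all genes called lower. With TAM, 0 of 10 passed in edgeR, beside 2.21% of all genes, and 0 in DESeq2, beside 6.52%. In edgeR 2 markers, Pi16 and Dpt, had an unadjusted p under 0.05, as did 21% of all genes.

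Between the treatments, E4 against E2 gave 6 lower markers, Pdgfra, Dcn, Lum, Dpt, Ly6a and Cd34, beside 8.97% of all genes called lower and 12.5% called in either direction, and the median log2 fold change was -0.55. Without E4 C39 this count was 9, all but Smoc2, beside 8.96% of all genes called lower. Only Cd34 also passed a fold of 2, beside 2.47% of all genes. TAM against E2 gave 3 lower markers, Dpt, Ly6a and Cd34, and 1 higher, Smoc2, beside 6.44% of all genes (4.51% lower, 1.93% higher), with a median of -0.33. TAM against E4 gave 0 of 10 in edgeR, beside 0.34% of all genes, and 0 in DESeq2, beside 0.815%. In edgeR Lum and Smoc2 had an unadjusted p under 0.05, as did 9.12% of all genes, and the median was 0.20. The comparisons share the OVX, E2 or E4 libraries and are not independent of one another.

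**Figure D2:**
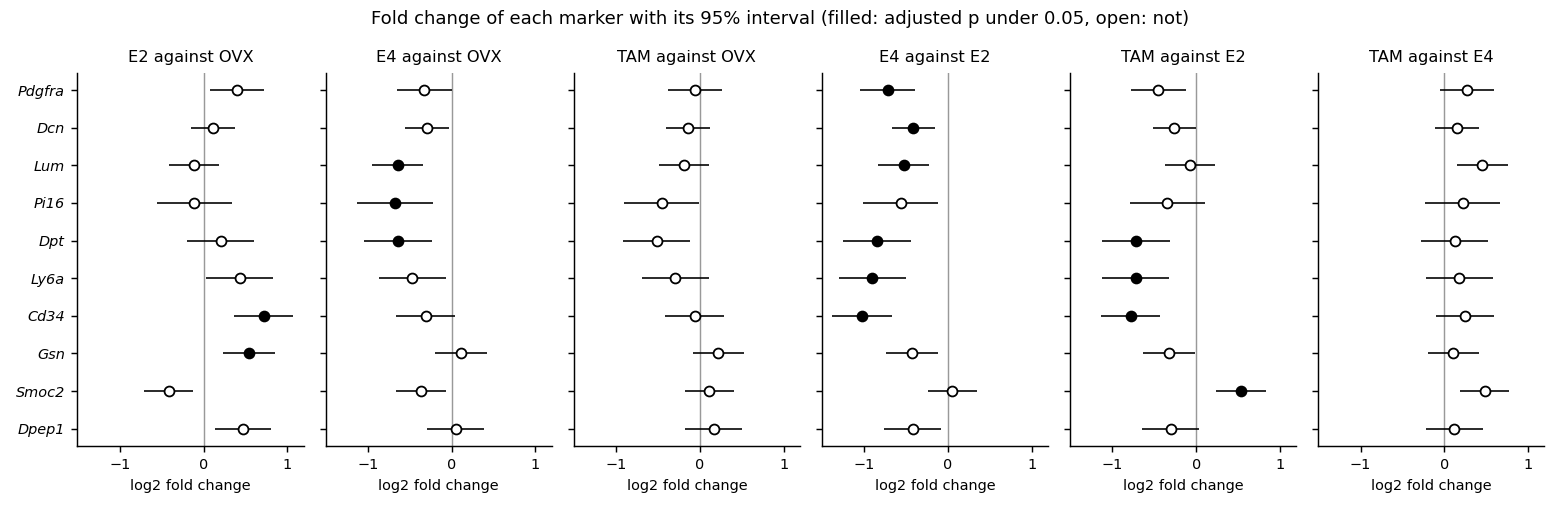
Log2 fold change (horizontal axis) of each marker with its 95% interval in the 6 comparisons, filled where the adjusted p was under 0.05 and open where it was not. Of the 10 markers, 9 lie below 0 for E4 against E2, 6 of them filled, and Smoc2 alone lies above it at 0.05.

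Cd34 gave the widest difference of the markers in each comparison with E2, while Pi16, Lum and Dpt gave the widest for E4 against vehicle and Dpt and Pi16 for TAM against vehicle. Cd34, a sialomucin of progenitor and endothelial cells, ranged from 263 to 492 CPM (median 303) in the OVX libraries, from 420.5 to 717 CPM (median 535) in E2, from 213 to 363 CPM (median 254) in E4 and from 239 to 439 CPM (median 319.7) in TAM. The E2 libraries were all above the E4 libraries, and above every OVX library except OVX C5, the highest of its group. Cd34 was 1.65-fold higher with E2 than with vehicle (log2 fold change 0.72, SE 0.171, edgeR adjusted p = 0.0138) and lower with E4 than with E2 (log2 fold change -1.03, SE 0.172, edgeR adjusted p = 0.000577), a pair of groups that did not overlap, as was so for 6.17% of all genes (4.13% with E4 lower). It was lower with TAM than with E2 (log2 fold change -0.78, SE 0.171, edgeR adjusted p = 0.00619). Against vehicle its estimate was -0.31 (SE 0.17, edgeR adjusted p = 0.19) with E4 and -0.06 (SE 0.17, edgeR adjusted p = 0.868) with TAM. The related podocalyxin genes were measured beside it: Podxl and Podxl2, the other members of the CD34 family, passed in 0 of 6 comparisons in edgeR.

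Ly6a, which encodes the GPI-anchored surface protein Sca-1, ranged from 168 to 352 CPM (median 210.2) in the OVX libraries, from 223 to 402 CPM (median 302) in E2, from 125 to 257 CPM (median 146) in E4 and from 135 to 250.1 CPM (median 184) in TAM. The E2 group had the highest median and overlapped all others, since OVX C5, E4 C39 and TAM C35 reached into its range. Ly6a was lower with E4 than with E2 (log2 fold change -0.90, SE 0.194, edgeR adjusted p = 0.00486) and with TAM than with E2 (log2 fold change -0.72, SE 0.193, edgeR adjusted p = 0.0251). The E2 against vehicle estimate of 0.43 (SE 0.193, edgeR adjusted p = 0.259) did not pass. Among the 9 other Ly6 genes, 6 were tested; Ly6e was higher with E2 than with vehicle (log2 fold change 0.56, SE 0.149, edgeR adjusted p = 0.0313) and Ly6c1, Ly6c2 and Ly6d were lower with E4 than with E2, Ly6c1 by -0.68 (SE 0.17, edgeR adjusted p = 0.0132). Ly6f was at 0 in every library.

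Pi16, a secreted peptidase inhibitor, ranged from 404 to 1079.7 CPM (median 579) in the OVX libraries, from 524 to 753 CPM (median 565) in E2, from 291 to 585 CPM (median 399.9) in E4 and from 369 to 749.8 CPM (median 446) in TAM. It was the most variable marker within the OVX group, where OVX C2 was lowest and OVX C5 highest, and all groups overlapped. Pi16 was lower with E4 than with vehicle (log2 fold change -0.68, SE 0.217, edgeR adjusted p = 0.0294). Without OVX C5 that difference was -0.47 with an edgeR adjusted p = 0.107. E4 against E2 gave -0.57 (SE 0.217, edgeR adjusted p = 0.0837).

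Dpt, or dermatopontin, a matrix protein that binds decorin and is a marker of fibroblasts in many organs, ranged from 476 to 965 CPM (median 628) in the OVX libraries, from 529 to 1045 CPM (median 727) in E2, from 318 to 539 CPM (median 415) in E4 and from 336 to 701 CPM (median 449) in TAM. Only E4 C39 in the E4 group reached the lowest E2 library, E2 C29, and the OVX range overlapped both. Dpt was lower with E4 than with vehicle (log2 fold change -0.64, SE 0.195, edgeR adjusted p = 0.0227), lower with E4 than with E2 (log2 fold change -0.85, SE 0.196, edgeR adjusted p = 0.00793) and lower with TAM than with E2 (log2 fold change -0.72, SE 0.196, edgeR adjusted p = 0.0273). The difference from vehicle lost its call without OVX C5, at -0.49 (edgeR adjusted p = 0.0751).

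Pdgfra, the receptor tyrosine kinase for platelet-derived growth factors, ranged from 137 to 228 CPM (median 165) in the OVX libraries, from 177 to 304 CPM (median 219) in E2, from 113 to 174 CPM (median 129) in E4 and from 128 to 221 CPM (median 163) in TAM. The E4 and E2 groups did not overlap, as was so for 6.17% of all genes (4.13% with E4 lower). The gap was narrow, from 173.6 CPM in E4 C39 to 176.8 CPM in E2 C29. The mean was 136 ± 23.6 CPM (SD, n = 6) with E4 against 224 ± 46.1 CPM (SD, n = 6) with E2. Pdgfra was lower with E4 than with E2 (log2 fold change -0.72, SE 0.158, edgeR adjusted p = 0.00549). With E2 as compared with vehicle the estimate was 0.40 (SE 0.157, edgeR adjusted p = 0.186) and did not pass. Among the 5 other genes of this system, Pdgfd was lower with E4 than with vehicle (log2 fold change -0.72, SE 0.16, edgeR adjusted p = 0.00383) and than with E2 (log2 fold change -0.55, SE 0.16, edgeR adjusted p = 0.027), and Pdgfb was lower with both estrogens than with vehicle. Pdgfrb, which smooth muscle and pericytes carry, and Pdgfa passed in 0 of 6 comparisons in edgeR.

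The proteoglycan Dcn was the steadiest of the markers in the OVX group. It ranged from 1829 to 2363 CPM (median 2046) in the OVX libraries, from 1871 to 2893 CPM (median 2136) in E2, from 1374 to 2096 CPM (median 1641) in E4 and from 1548 to 2287 CPM (median 1845) in TAM. All groups overlapped, with E4 lowest and E2 highest by median. Dcn was lower with E4 than with E2 (log2 fold change -0.41, SE 0.127, edgeR adjusted p = 0.0349), and this call was lost in 7 of 12 fits that left out 1 library, with an edgeR adjusted p of 0.116 without E2 C8. Against vehicle it gave 0.12 (SE 0.126, edgeR adjusted p = 0.773) with E2 and -0.30 (SE 0.126, edgeR adjusted p = 0.0917) with E4.

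Lum, which lies beside Dcn in the genome, ranged from 386 to 506 CPM (median 433) in the OVX libraries, from 292 to 538 CPM (median 403) in E2, from 209.9 to 356 CPM (median 279) in E4 and from 281 to 503 CPM (median 377) in TAM. Every E4 library was below every OVX library, which held for 9.37% of all genes (4.07% with E4 lower). Lum was lower with E4 than with vehicle (log2 fold change -0.65, SE 0.146, edgeR adjusted p = 0.0042) and than with E2 (log2 fold change -0.53, SE 0.145, edgeR adjusted p = 0.0204). With E2 the estimate against vehicle was -0.12 (SE 0.145, edgeR adjusted p = 0.816). Of the 10 other small leucine-rich proteoglycan genes 9 were tested. Osteoglycin (Ogn), a fibril-associated member, was higher with E2 (log2 fold change 0.66, SE 0.177, edgeR adjusted p = 0.0336) and lower with E4 than with E2 (log2 fold change -0.80, SE 0.177, edgeR adjusted p = 0.00627), as was Aspn, with 0.91 (SE 0.173, edgeR adjusted p = 0.0019) for E2 against vehicle. Fibromodulin (Fmod) was lower with E2 (log2 fold change -1.22, SE 0.199, edgeR adjusted p = 0.000347) and with E4 (log2 fold change -0.61, SE 0.196, edgeR adjusted p = 0.0304). Biglycan (Bgn), at 195 CPM per kilobase over all libraries, passed only for TAM against E2, where it was higher (log2 fold change 0.60, SE 0.179, edgeR adjusted p = 0.0444), and Prelp passed in 0 of 6 comparisons in edgeR. With E2, members of this family rose, fell or did not pass.

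Gsn, the actin-severing protein gelsolin, which also has a secreted form, ranged from 2083 to 3766 CPM (median 2627) in the OVX libraries, from 3524 to 4299.5 CPM (median 3962) in E2, from 2254 to 3882 CPM (median 2872) in E4 and from 2686 to 4132 CPM (median 3032) in TAM. The lowest E2 library stood above all OVX libraries but OVX C5. Gsn was higher with E2 than with vehicle (log2 fold change 0.54, SE 0.149, edgeR adjusted p = 0.0372). This call was near the threshold: it was lost in 9 of 12 fits without 1 library, with edgeR adjusted p values of 0.00553 to 0.0952 over the 12. Leaving out OVX C5 raised the difference to 0.66. With E4 and TAM the estimates against vehicle were 0.11 (SE 0.149, edgeR adjusted p = 0.607) and 0.22 (SE 0.149, edgeR adjusted p = 0.414). In the gelsolin family Flii was higher with E4 (log2 fold change 0.28, SE 0.072, edgeR adjusted p = 0.0101) and Scin was higher with each treatment than with vehicle, while Avil and Svil passed in 0 of 6 comparisons in edgeR.

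Smoc2, a calcium-binding matricellular protein of the SPARC family, ran apart from the other markers. It ranged from 180.04 to 317 CPM (median 226) in the OVX libraries, from 167 to 186 CPM (median 174) in E2, from 142 to 252 CPM (median 181) in E4 and from 206 to 347 CPM (median 234) in TAM. The E2 libraries lay within a narrow band, with an SD of 7.59 CPM, below every TAM library. Smoc2 was higher with TAM than with E2 (log2 fold change 0.53, SE 0.143, edgeR adjusted p = 0.0255), groups that did not overlap, as was so for 4.24% of all genes (1.11% higher with TAM). Against vehicle the estimate was -0.42 (SE 0.143, edgeR adjusted p = 0.106) with E2 and -0.37 (SE 0.143, edgeR adjusted p = 0.0656) with E4, and neither passed. The E4 difference of Smoc2 did pass without OVX C3 (13% of all genes called) and without E4 C39 (20.1%). It also passed among animals numbered under 24 alone (12.1%), and with a covariate for animal numbers under 24 or from 24 (20.8%). SPARC itself (Sparc), a collagen-binding matrix protein, was lower with E2 (log2 fold change -0.65, SE 0.139, edgeR adjusted p = 0.00568) and with E4 (log2 fold change -0.67, SE 0.139, edgeR adjusted p = 0.00264) than with vehicle and higher with TAM than with E2 (log2 fold change 0.87, SE 0.139, edgeR adjusted p = 0.000311). Sparcl1 was also higher with TAM than with E2 (log2 fold change 0.43, SE 0.115, edgeR adjusted p = 0.025), and Fstl1 was lower with E4 than with E2 (log2 fold change -0.54, SE 0.175, edgeR adjusted p = 0.046).

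Dpep1, a membrane dipeptidase that cleaves leukotriene D4, ranged from 37.8 to 77.4 CPM (median 46.1) in the OVX libraries, from 60.5 to 81 CPM (median 70.3) in E2, from 38.1 to 67.5 CPM (median 50.5) in E4 and from 37.2 to 68.8 CPM (median 58.4) in TAM. All groups overlapped, and OVX C5 alone carried the OVX group into the E2 range. It passed in 0 of 6 comparisons in edgeR, with 0.47 (SE 0.164, edgeR adjusted p = 0.118) for E2 against vehicle and -0.42 (SE 0.164, edgeR adjusted p = 0.0858) for E4 against E2, both at an unadjusted p under 0.05. Without OVX C5 its difference with E2 was 0.64 and passed. Its relative Dpep2, at 1.28 CPM over all libraries, was higher with E2 than with vehicle (log2 fold change 1.40, SE 0.237, edgeR adjusted p = 0.000525), and Dpep3 was under the filter on low counts. These Dpep2 values are of ENSMUSG00000053687, with 1383 counts over all libraries. ENSMUSG00000115067, which carries the same name and had 925 counts, is not part of them.

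The markers moved together between animals of a group, and with genes of other cell types. OVX C5, E2 C8, E4 C39 and TAM C35 were each the highest library of their group in 9 of 10 markers, and E2 C29 and E4 C38 were the lowest in 7 and 6. After subtracting group means, the 45 pairs of markers had a median Pearson r of 0.787 over the 24 libraries (0.325 to 0.958), and of 0.707 over the 22 without OVX C5 and TAM C35. Dpt and Cd34 were the most alike pair (r = 0.958), followed by Ly6a and Cd34 (r = 0.95). Smoc2 was the marker least like the other 9, with an r of 0.641 to their mean, beside 0.916 for Pdgfra. Their r to the mean log2 level of other lists, with group means subtracted, ran from 0.694 to 0.962 (median 0.878) for the 20 other fibroblast genes, 0.498 to 0.871 (median 0.806) for the macrophage genes, 0.577 to 0.831 (median 0.705) for the smooth muscle genes, 0.449 to 0.81 (median 0.651) for the endothelial genes and -0.734 to -0.346 (median -0.669) for the ganglion genes. Without OVX C5 and TAM C35 the medians were 0.848, 0.768, 0.627, 0.509 and -0.473, in the same order. These values share the library and its depth and are descriptions without a test.

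**Figure D3:**
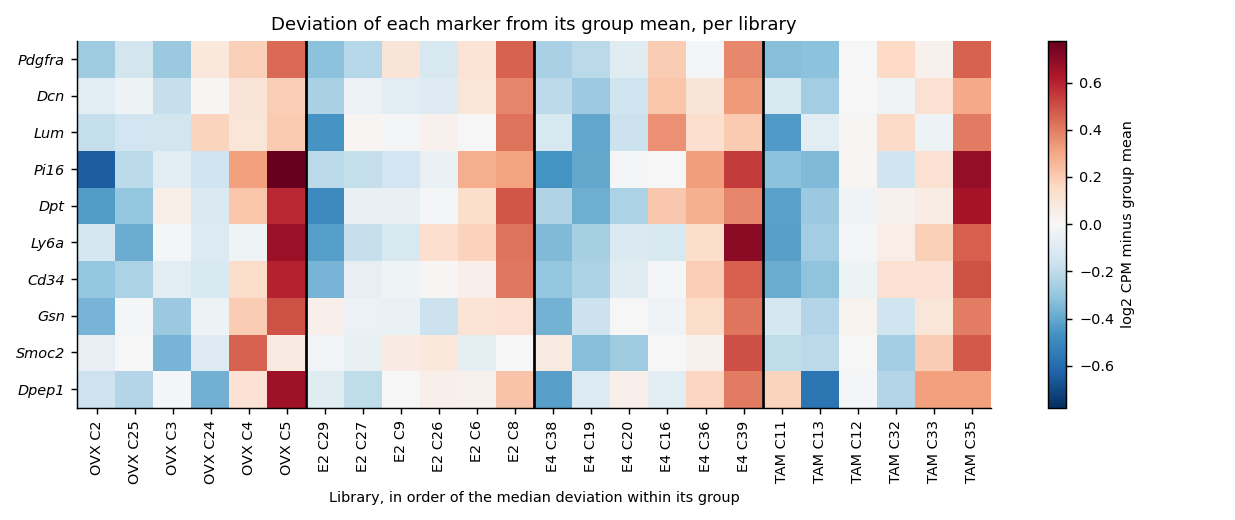
Log2 CPM of each marker (rows) minus the mean of its group, per library (columns, ordered within each group by the median deviation); red is above and blue below the group mean. OVX C5, E2 C8, E4 C39 and TAM C35 are at the right end of their groups, with median deviations from 0.39 to 0.54.

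Among 16260 protein-coding genes, the 5 most like the markers' mean over the 24 libraries, with group means subtracted, were Scara5 (r = 0.963), a ferritin receptor of fibroblasts, Adgrd1 (r = 0.956), an adhesion receptor, Rnase4 (r = 0.952), a secreted ribonuclease, Serping1 (r = 0.951), the C1 inhibitor, and C1s1 (r = 0.951), a complement protease. All 5 kept an r of 0.924 or more without OVX C5 and TAM C35. By group mean Scara5 was at 314 CPM in OVX, 269 in E2, 195 in E4 and 252 in TAM, and it was lower with E4 than with vehicle (log2 fold change -0.68, SE 0.158, edgeR adjusted p = 0.00492).

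A wider list of 20 other adventitial fibroblast genes, all tested, gave a mixed picture. With E2 as compared with vehicle 1 was higher and 3 were lower, with E4 1 was higher and 8 were lower, and with TAM 1 was higher, beside 4.16%, 22% and 2.21% of all genes called in either direction. Fbln2, the elastic fibre protein fibulin-2, was the 1 higher gene in each, by 1.20 (SE 0.149, edgeR adjusted p = 1.13e-05), 0.58 (SE 0.147, edgeR adjusted p = 0.00832) and 0.72 (SE 0.148, edgeR adjusted p = 0.0172). Col14a1, a fibril-associated collagen, was lower with E2 (log2 fold change -0.59, SE 0.161, edgeR adjusted p = 0.0366) and with E4 (log2 fold change -0.69, SE 0.162, edgeR adjusted p = 0.00556), and so were Sema3c and Pdgfrl, the latter by -1.09 (SE 0.19, edgeR adjusted p = 0.000758) and -1.02 (SE 0.19, edgeR adjusted p = 0.00125). With E4 as compared with E2 4 of the 20 were lower (beside 8.97% of all genes), Clec3b, Cd248, Fbln2 and Ackr3, of which Clec3b fell by 0.77 on the log2 scale (SE 0.22, edgeR adjusted p = 0.0254). For TAM against E4, 2 of the 20 were higher, Sema3c and Pdgfrl, beside 0.34% of all genes. For TAM against E2, Pdgfrl was higher and Cd248 lower, beside 6.44% of all genes. Thy1 and Tnxb passed in 0 of 6 comparisons in edgeR. The list median was -0.09 with E2 against vehicle, -0.50 with E4 against vehicle and -0.35 with E4 against E2.

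Relative to decorin the markers changed in different directions. The ratio of a marker's CPM to that of Dcn in the same library removes a change common to both, and it was taken after the values had been seen. Cd34 relative to Dcn was 0.135 to 0.208 (median 0.152) in OVX, 0.225 to 0.262 (median 0.243) in E2, 0.135 to 0.173 (median 0.163) in E4 and 0.139 to 0.192 (median 0.165) in TAM, so that all E2 libraries lay above all others. Smoc2 relative to Dcn was 0.0984 to 0.143 (median 0.109) in OVX, 0.0608 to 0.0923 (median 0.0824) in E2, 0.0924 to 0.129 (median 0.103) in E4 and 0.113 to 0.152 (median 0.137) in TAM, so that all E2 libraries lay below all others. Lum relative to Dcn was 0.197 to 0.238 (median 0.213) in OVX and 0.153 to 0.184 (median 0.168) in E4, with every E4 library below every OVX library. Of the 9 ratios, 2 did not overlap between E2 and OVX (beside 2.77% of all genes), 1 between E4 and OVX (9.34%), 4 between E4 and E2 (5.04%: Pdgfra, Dpt, Cd34 and Smoc2), 3 between TAM and E2 (4.94%: Ly6a, Cd34 and Smoc2), and 0 between TAM and OVX (3.63%) or TAM and E4 (0.851%). The mean log2 difference in the Cd34 ratio was 0.63 (SE 0.102) for E2 against OVX, and that in the Smoc2 ratio was -0.51 (SE 0.124).

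**Figure D4:**
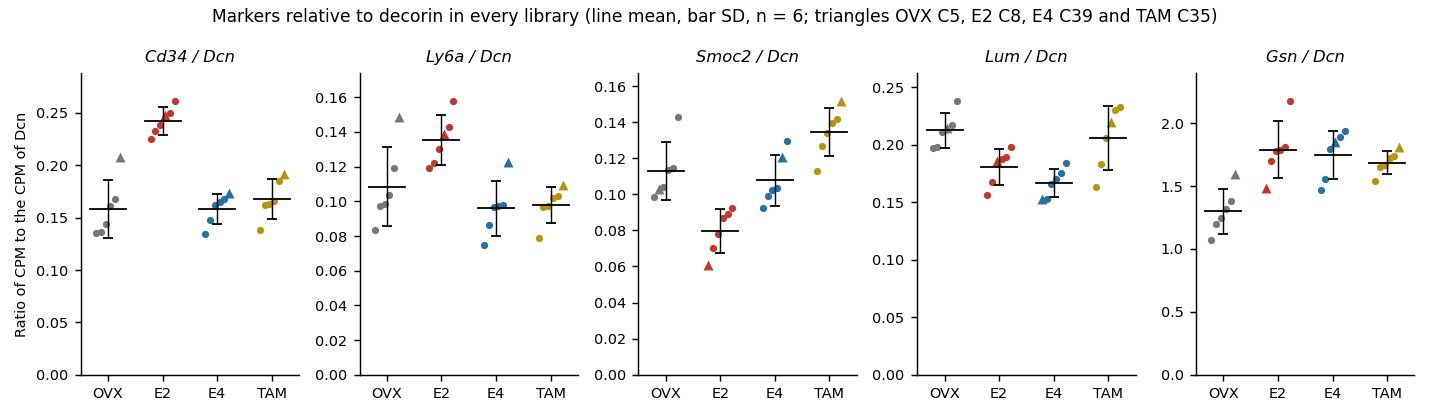
Ratio of the CPM of Cd34, Ly6a, Smoc2, Lum and Gsn to the CPM of Dcn in every library (vertical axes start at 0; lines are means, bars 1 SD, n = 6; triangles are OVX C5, E2 C8, E4 C39 and TAM C35). The E2 libraries are the highest for Cd34, from 0.225 to 0.262, and the lowest for Smoc2, from 0.0608 to 0.0923.

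Genes of other cell types moved with some of these results. The 8 macrophage genes, among them Adgre1, Csf1r and C1qa, were all higher with E2 than with vehicle and all lower with E4 and with TAM than with E2. Their sum was 968 to 1471 summed CPM (median 1237) in E2, 569 to 1037 summed CPM (median 652) in OVX, 413 to 775 summed CPM (median 566) in E4 and 535 to 741 summed CPM (median 576) in TAM, and its part in the marker differences was not tested. The 7 sympathetic ganglion genes, such as Th and Dbh, which mark noradrenergic neurons, passed in 0 comparisons in edgeR, but their sum was 23.9 to 4890.5 summed CPM (median 3567) in OVX, 1708 to 4901 summed CPM (median 3785) in E2, 3969 to 6874 summed CPM (median 6050.3) in E4 and 159 to 6488 summed CPM (median 4701) in TAM. Its lowest library in each group was OVX C5, E2 C8, E4 C39 or TAM C35, the libraries highest in the fibroblast markers.

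With OVX C5 and TAM C35 left out, E2 against vehicle called 5 markers higher, Pdgfra, Ly6a, Cd34, Gsn and Dpep1, E4 against vehicle called the same 3 lower, E4 against E2 called 9 lower, all but Smoc2, and TAM against E2 called 6. The shares of all genes called were then 6.62% for E2 against vehicle (4.48% higher), 22.2% for E4 against vehicle, 25.7% for E4 against E2 (12.4% lower) and 13.2% for TAM against E2. With the mean log2 level of the ganglion genes as a covariate, E2 against vehicle also called those 5 markers beside 8.71% of all genes, and E4 against vehicle called only Lum beside 18% of all genes. Smooth muscle genes summed to 2359 to 4903 summed CPM (median 3326) in OVX, 2747 to 3763 summed CPM (median 3064) in E2, 2944 to 4848 summed CPM (median 3369) in E4 and 3023 to 8424 summed CPM (median 4038) in TAM, and 0 of 8 passed with E2 against vehicle or with E4 against E2 in edgeR. For TAM against E2, where 3 markers were lower, Myh11, the smooth muscle myosin, and Myocd, a coactivator of smooth muscle genes, were higher, and Myocd was also higher with E4 and with TAM than with vehicle. Of the 9 endothelial genes, which mark a cell type that also carries Cd34 and Ly6a, Vwf was higher with E2, with E4 and with TAM than with vehicle and Egfl7 was lower with E4, while 0 of 9 passed between the treatments in edgeR. Of the adipocyte genes 3 of 6 (Lep, Retn and Fabp4) and of the B cell genes 6 of 6 were lower with E4 than with vehicle, and with either list as a covariate 0 markers were called for E4 against vehicle in edgeR, beside 4.28% of all genes with the adipocyte and 0.407% with the B cell covariate. Those covariates differ between the groups, and the part of either tissue in the marker differences cannot be told apart from the treatment here. E4 C38 held 2937 summed CPM of thyroid and parathyroid genes and E2 C9 held 153 of T cell genes, and without E4 C38 the calls of Pi16 (E4 against vehicle, edgeR adjusted p = 0.0664) and Dcn (E4 against E2, 0.075) were lost, as without E2 C9 were those of Gsn (E2 against vehicle, 0.0583) and Dcn (0.0543).

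**Figure D5:**
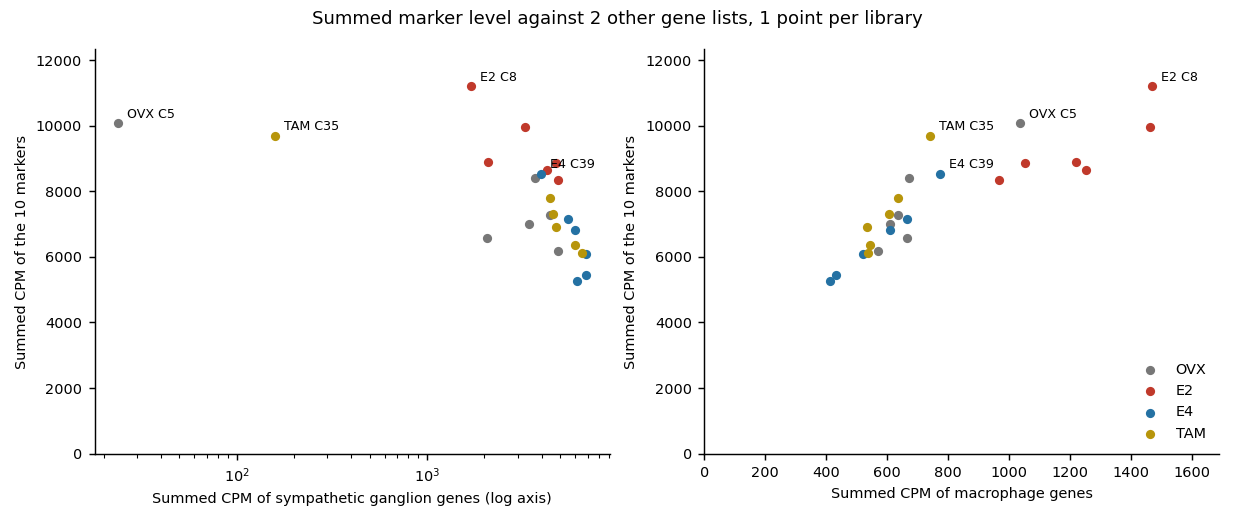
Summed CPM of the 10 markers (vertical axis, from 0) against the summed CPM of the sympathetic ganglion genes (left, log axis) and of the macrophage genes (right, from 0), 1 point per library, coloured by group. OVX C5 and TAM C35 stand apart at 23.9 and 159 ganglion CPM with 10071.9 and 9699 marker CPM, and the E2 libraries lie at 968 to 1471 macrophage CPM.

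The markers that stayed called in every fit without 1 library were Cd34 in its 3 called comparisons, Lum for E4 against vehicle, and Pdgfra, Dpt and Ly6a for E4 against E2. Their edgeR adjusted p values over the 12 fits ran from 0.00137 to 0.0407 for Cd34 with E2, 0.000234 to 0.00256 for Cd34 with E4 against E2, 0.00162 to 0.023 for Cd34 with TAM against E2 and 0.00313 to 0.0137 for Lum. Lum for E4 against E2 lost its call in 3 of 12 such fits (without E2 C8, E4 C19 or E4 C20; edgeR adjusted p up to 0.0718), Pi16 for E4 against vehicle in 5 (OVX C4, OVX C5, E4 C19, E4 C20 or E4 C38) and Dpt in 3 (OVX C5, E4 C19 or E4 C20). Dcn for E4 against E2 lost it without E2 C6, E2 C8, E2 C9, E4 C19, E4 C20, E4 C36 or E4 C38, and Gsn with E2 kept it only without OVX C4, OVX C5 or E2 C26. For TAM against E2, Dpt lost its call in 7 of 12 (E2 C6, E2 C8 or any TAM library but TAM C35), Ly6a in 5 (E2 C6, E2 C8, TAM C11, TAM C12 or TAM C13) and Smoc2 in 4 (E2 C6, E2 C8, TAM C33 or TAM C35). Within the second number series, the animals numbered from 24, none of the marker calls remained. The shares of all genes called there were 0.361% for E2 against vehicle, 0.0196% for E4 against vehicle, 0% for E4 against E2 and 0.451% for TAM against E2. Its only vehicle libraries were OVX C24 and OVX C25. Cd34 with E2 against vehicle was not called within the first either (1.34% of all genes), with fewer libraries in each fit. The log2 fold change of Cd34 with E2 stayed between 0.71 and 0.87 over the settings other than leaving out 1 library. With the adipocyte covariate the calls of Lum (E4 against vehicle), Pdgfra, Dpt and Ly6a (E4 against E2) and Cd34 (TAM against E2) were lost, beside 4.28%, 2.17% and 3.24% of all genes called in these comparisons, and the Cd34 difference of TAM against E2 was between -1.19 and -0.39 over the settings other than leaving out 1 library.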

How the data were processed

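The 24 carotid libraries were made from poly(A) RNA with a stranded Illumina kit and sequenced in paired ends; the submitters' processing notes name bcl2fastq 2.17, Trim Galore, Bowtie2 and featureCounts on GRCm38 (mm10). The strand and multi-mapping settings of the counting are not given in the sources used here. The deposited values are expected counts per Ensembl gene, 1 table per library, part of them fractional, and were rounded to whole numbers here. Samples were grouped by title. Of 55421 genes, 55240 had a GENCODE M21 name and 25033 passed filterByExpr; library totals of 24647246 to 64221401 set the counting precision.

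One edgeR 4.0.16 quasi-likelihood fit (R 4.3.3, TMM scaling) held all 24 libraries, with 6 contrasts and Benjamini-Hochberg adjustment over 25033 genes; a gene passed at an adjusted p under 0.05. The SE is the log2 fold change over the root of F. The test was checked on simulated counts. Alternatives were DESeq2 1.42.0, other scaling, filter and fits, covariates, and 12 fits per comparison without 1 library. Libraries are separate animal numbers. CPM used TMM-scaled totals, and values per kilobase were divided by GENCODE exon length. The markers and gene lists were chosen with earlier results of these data known. Genes named were all 10 markers, the 3 of each list of relatives with the highest CPM, not corrected for length, the 5 genes most like the markers, and, chosen after their values were seen, Ogn, Aspn and Fmod among others that passed. Correlations used log2 CPM minus the group mean. Some results are not reported here.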

Additional observations from a re-analysis of the deposited data

Results flagged for a closer look

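In 4 of 40 groups of marker values 1 library stood far from the other 5 of its group by Dixon's criterion, where chance alone gives about 2.0. TAM C35 held 749.8 CPM of Pi16 beside 369 to 507 in the other TAM libraries, and 701 CPM of Dpt beside 336 to 467. Ly6a was at 352 CPM in OVX C5, beside 168 to 218, and at 257 CPM in E4 C39, beside 125 to 174.

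Of the 44 groups of summed marker levels of other cell types, 9 held such a library, where chance gives about 2.2. TAM C35 was far from its group in smooth muscle genes (8424 summed CPM beside 3023 to 4315), sympathetic ganglion genes (159 beside 4414 to 6488) and skeletal muscle genes (246 beside 57.1 to 89.1). E4 C39 was far from its group in endothelial genes (1086 beside 717 to 846) and Schwann cell genes (3377 beside 1255 to 1916). OVX C5 held 1037 summed CPM of macrophage genes beside 569 to 672. E2 C27 held 16.045 of B cell genes beside 5.23 to 8.98, E2 C9 held 153 of T cell genes beside 3.31 to 14.5, and E4 C38 held 2937 of thyroid and parathyroid genes beside 12.3 to 120. Without E4 C39, 6 markers in place of 3 were lower with E4 than with vehicle, beside 11.8% of all genes called lower. In the same setting 9 in place of 6 were lower with E4 than with E2, beside 8.96%. Without E2 C27 the call of Gsn for E2 against OVX was lost.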

How the results depend on the processing

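Markers called by edgeR without 1 library ranged from 1 to 3 for E2 against OVX (2 with all libraries), 1 to 6 for E4 against OVX (3), 4 to 9 for E4 against E2 (6), 1 to 4 for TAM against E2 (4), 0 to 1 for TAM against OVX (0) and 0 to 0 for TAM against E4 (0); the lone TAM call was Dpt without TAM C35, and the highest E4 counts came without E4 C39. Over all genes the share called in these fits was 3.19% to 4.81%, 13% to 24.3%, 5.68% to 17%, 3.99% to 8.08%, 0.289% to 3.47% and 0.245% to 0.368%, in the same order. For E2 against OVX the count was 1 without a filter on low counts (1.91% of all genes), 1 with OVX, E2 and E4 in the fit (3.88%), 1 with the 2 groups alone (2.89%), 5 without OVX C5 and TAM C35 (6.62%) and 5 with the ganglion covariate (8.71%). For E4 against OVX it was 4 with the number series as a covariate (20.8%), which added Smoc2, and 2 with the 2 groups alone (18.4%). It was 1 with the ganglion covariate (18%) and 0 with the adipocyte (4.28%) or B cell (0.407%) covariate. For E4 against E2 it was 1 with the adipocyte (2.17%) and 3 with the B cell covariate (2.89%). It was 9 with the 2 groups alone (22.5%), 9 without OVX C5 and TAM C35 (25.7%), 8 with the ganglion covariate (16.3%) and 7 with DESeq2 (16.2%), which added Gsn. For TAM against E2 it was 1 with the adipocyte covariate (3.24%), 6 with the ganglion covariate (13.2%) and 6 without OVX C5 and TAM C35 (13.2%). DESeq2 called the same markers as edgeR for E2 against OVX (6.19%), E4 against OVX (24.9%) and TAM against E2 (9.01%). A fold over 2 as a further condition in edgeR left 1 marker, Cd34, for E4 against E2, beside 2.47% of all genes. It left 0 for E2 against OVX, E4 against OVX and TAM against E2, for which the share of all genes under that rule is not given here.

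Animal numbers run through the groups and start again from 24, which the labels do not explain. Within the first number series the counts were 0 for E2 against OVX (1.34% of all genes), 5 for E4 against OVX (12.1%), 5 for E4 against E2 (12.6%) and 4 for TAM against E2 (4.58%). Within the second number series they were 0 for E2 against OVX (0.361%), E4 against OVX (0.0196%), E4 against E2 (0%) and TAM against E2 (0.451%). Each fit held fewer libraries, and OVX C24 and OVX C25 were the only vehicle libraries of the second number series. With the number series as a covariate the counts were 2 (4.24%), 4 (20.8%), 6 (12.5%) and 4 (6.74%), in the same order. An interaction of treatment with the number series reached an adjusted p under 0.05 for 0 markers and for 0 genes (859, 1429 and 2704 genes at an unadjusted p under 0.05 for E2, E4 and TAM against OVX, or 3.43%, 5.71% and 10.8%). At that unadjusted p stood 0 markers for E2, 1 for E4 (Ly6a) and 4 for TAM (Dpt, Ly6a, Cd34 and Dpep1), and the estimate, second minus first number series, was above 0 for 5, 10 and 10 of the markers. No paired analysis was possible because the groups share no animal numbers.

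Apart from the fits without 1 library, 690 values of single markers were recomputed, of which 589 kept direction and side of the threshold, 45 lost a call, 24 gained one and 32 turned sign, each from a main value that had not passed. The log2 fold changes that turned were as follows, and the cause was not tested. Without OVX C5 and TAM C35, Pi16 was 0.0821 for E2 against OVX and Dpt -0.0408 for TAM against E4. With the ganglion covariate, Pi16 was 0.0937 for E2 against OVX, Pdgfra 0.0365 and Cd34 0.0649 for TAM against OVX, and Dpt -0.0329 for TAM against E4. With the B cell covariate, Pi16 was 0.0593 for E2 against OVX, and Pdgfra 0.0386 and Cd34 0.0895 for TAM against OVX. With the adipocyte covariate, Cd34 was 0.0354 for E4 against OVX, Pdgfra 0.21, Dcn 0.0567, Ly6a 0.13 and Cd34 0.28 for TAM against OVX, and Lum 0.0653 for TAM against E2. In the first number series, Lum was 0.018 for E2 against OVX, Dpep1 -0.17 for E4 against OVX, Smoc2 -0.0911 and Dpep1 -0.13 for TAM against OVX, Smoc2 -0.17 for E4 against E2 and Dpt -0.0148 for TAM against E4. In the second number series, Dcn was -0.0138 for E2 against OVX, Cd34 0.0385 for E4 against OVX, Pdgfra 0.20, Dcn 0.0096, Pi16 0.0219, Ly6a 0.21 and Cd34 0.38 for TAM against OVX, and Pdgfra 0.0098, Dcn 0.0234, Lum 0.24 and Pi16 0.0489 for TAM against E2. Of 720 values without 1 library, 13 turned sign, none of them called with all libraries. These belonged to Pi16 for E2 against OVX (-0.2188 to 0.088), Dpep1 for E4 against OVX (-0.0436 to 0.2185), Pdgfra (-0.1543 to 0.0518) and Cd34 (-0.1699 to 0.0915) for TAM against OVX, Smoc2 for E4 against E2 (-0.0645 to 0.1139), Lum for TAM against E2 (-0.1602 to 0.0182) and Dpt for TAM against E4 (-0.0408 to 0.2064). No marker had fewer than 941 counts in a library, so counting error was small beside the spread between animals.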

Other observations

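Some cell type lists not described above gave these counts. The 4 pericyte genes gave Rgs5 and Kcnj8 lower with E4 than with vehicle and Kcnj8 also than with E2, and Rgs5 lower with E2 than with vehicle. Among the Schwann cell genes Sox10 and Foxd3 were higher with E4 than with vehicle and than with E2, and Foxd3 with TAM than with E2. Of the thyroid and parathyroid genes Tg was higher with E4 and with TAM than with E2, contrasts of which the first holds E4 C38. The 6 T cell genes were all lower with E4 than with E2, a contrast that holds E2 C9. The 5 skeletal muscle genes passed in 0 comparisons in edgeR.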
